A study of Mus musculus with 29 samples.

Results

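The Hnrnp and SR splicing factors were examined in bone marrow pro-B cells with and without Pax5, the transcription factor that commits lymphoid progenitors to the B cell lineage. The members were all entries whose names begin with Hnrnp, Hnrp, Srsf or Sfrs, which gave 32 of the 24732 entries of the tables aligned to mm9, 20 of them Hnrnp and 12 of them SR. The family was chosen by the TPM of 1 member, Hnrnpll, which was higher in the Pax5-deficient cells, and the question was whether the other members changed with it. The values of Hnrnpll are therefore given as a description without a test. It was left out of every count of changes between the genotypes and of every family sum. The other members were taken by name alone.

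The RNA-seq data covered 3 libraries of wild-type pro-B cells and 2 libraries of Pax5(-/-) pro-B cells, hereafter Pax5-/-, all from C57BL/6 mice, sorted ex vivo by flow cytometry and not cultured. The sort gates differed between the genotypes, and that of the Pax5-/- progenitors included Ly6D. The gate and the genotype therefore cannot be told apart. A further 3 libraries held pooled pro-B cells of Pax5(+/+) Meox2-cre mice at the age of 3 weeks, which express Cre recombinase from the Meox2 locus throughout the body. These were aligned to mm10 with other software and are given apart. The age of the other mice and the number of mice behind each library were not given in the labels, so that the p-values measure the spread between these libraries. Every table holds TPM, a transcript abundance that is divided by transcript length and scaled to the same total in each library, so the depth in reads is unknown and no counting interval can be given.

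Heterogeneous nuclear ribonucleoproteins (Hnrnp) coat nascent pre-mRNA and often repress the use of nearby splice sites, whereas SR proteins carry a domain rich in arginine and serine and recruit the splicing machinery to exons. Both are abundant nuclear proteins in nearly every cell type, and exon choice depends on the balance between them. Hnrnpll, by contrast, is known as a lymphocyte protein that represses the variable exons of Ptprc (CD45) in activated T cells and acts during plasma cell differentiation.

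The genotypes were apparent in the libraries. Pax5 was measured at 342, 386 and 391 TPM in the wild-type libraries against 43.0 and 39.1 TPM with Pax5 mutated, a level per gene that does not resolve the mutated exon. Ly6d was at 190 to 270 TPM against 2258 and 3033 TPM, in the direction of the gate. The summed myeloid markers were at 45.9, 252 and 192 TPM against 55.4 and 83.7 TPM, the erythroid markers at 19.4, 44.6 and 57.5 TPM against 9.78 and 4.55 TPM, and the T cell markers at 8.77 to 13.2 TPM against 7.26 and 9.77 TPM, with Cd3e at 0.088 to 0.432 TPM against 0 in both, Cd4 at 0.368 to 0.712 TPM against 3.97 and 5.88 TPM, and Cd5 at 7.08 to 12.2 TPM against 2.93 and 3.01 TPM. The erythroid and myeloid sums were lowest among the wild-type libraries in replicate 1, and the part of these cells in the results was not tested. In bulk RNA, fewer cells of a type and less RNA per cell cannot be told apart.

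Hnrnpll was the least abundant detected member in wild-type pro-B cells. The 3 wild-type libraries gave 1.99, 3.11 and 2.67 TPM, and the 2 Pax5-/- libraries gave 34.6 and 27.1 TPM. Both Pax5-/- values lay far above all 3 wild-type values. The means were 2.59 ± 0.563 TPM (SD, n = 3) in wild-type and 30.9 ± 5.29 TPM (SD, n = 2) in Pax5-/- cells, a ratio of 11.9 and a difference of 3.35 ± 0.23 (SE) on the log2(TPM + 0.5) scale. Ptprc, whose exons Hnrnpll is known to regulate, was at 59.3, 66.7 and 70.0 TPM against 72.1 and 74.0 TPM. These are levels of the whole gene and say nothing of its isoforms.

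The gene lies on the minus strand of mouse chromosome 17 (mm9, chr17:80428827-80461674, under its older name Hnrpll). None of the 3067 stretches of 50 bases in its longest annotated transcript recurred elsewhere in the mm9 chromosomes, counting exact matches only. The nearest other member on the chromosome is Srsf7, an SR protein gene on the same strand at a distance of 137.8 kb. Srsf7 was at 242, 214 and 269 TPM with Pax5 and at 219 and 181 TPM without it. The groups overlapped and the difference of -0.27 ± 0.13 (SE, log2 scale) did not pass (limma, adjusted p = 0.144).

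The closest relative of Hnrnpll is Hnrnpl, which binds CA repeats in pre-mRNA and also represses Ptprc exons. Translated from the mm9 annotation, 309 of the 591 residues of Hnrnpll (52.3%) were identical in Hnrnpl, whereas the next highest share among the members was 13.5% in Hnrnpd. The Hnrnpl values were 806, 752 and 844 TPM in wild-type cells, and 684 and 634 TPM in Pax5-/- cells. The groups did not overlap, and the Pax5-/- libraries were the lower ones. The difference of -0.28 ± 0.10 (SE, log2 scale) did not pass the threshold of 0.05 (limma, adjusted p = 0.0613). Even at its Pax5-/- level Hnrnpll remained far below Hnrnpl, as TPM are per transcript length and can be set side by side between genes.

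**Figure D1:**
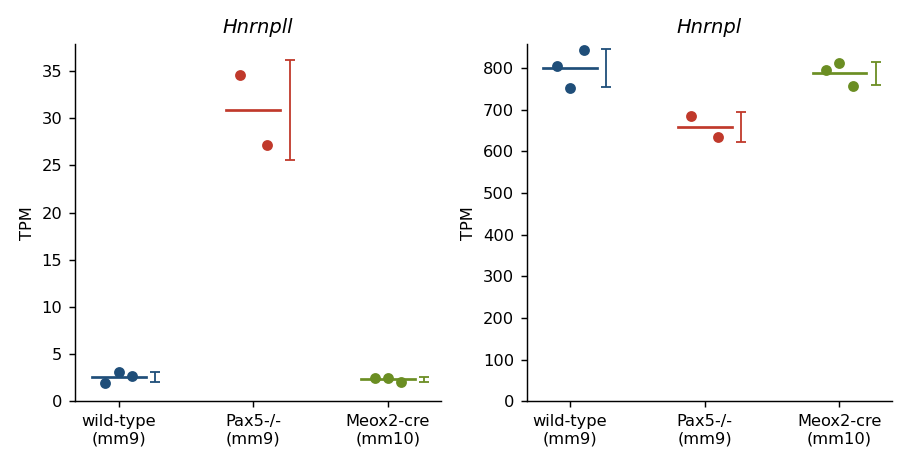
TPM of Hnrnpll (left) and its paralogue Hnrnpl (right) in wild-type (n = 3), Pax5-/- (n = 2) and Meox2-cre (n = 3) pro-B cells. Points are libraries, horizontal lines are means and the bars beside them are ± SD. Hnrnpll lies at 27.1 and 34.6 TPM without Pax5 and at or below 3.11 TPM in all others, whereas Hnrnpl lies between 634 and 844 TPM throughout. The Meox2-cre libraries were aligned to another genome build.

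None of the 30 other members tested passed as higher. Of the 30 other members that passed the filter on low values (1 TPM on average in either genotype), 0 were higher in the Pax5-/- cells at an adjusted p below 0.05 by limma, and 0 were higher at an unadjusted p below 0.05, beside 15.6% and 19.3% of the 12066 genes tested. The changes of these 30 members ran from -0.97 to 0.06 on the log2 scale. With the thresholds of fold and level that the study used for regulated genes added to the limma test (3-fold and 5 TPM on average in either genotype), 0 of the 30 were higher and 0 were lower, beside 2.83% and 3.34% of all genes. The member nearest to the 3-fold threshold on the inside was Hnrnpll, whose value chose the family, and on the outside Hnrnph3. Srsf12 did not pass the filter, as it was listed at 0 in all 3 wild-type libraries, with 0.151 and 0.223 TPM in those without Pax5. It was not tested, and without the filter it passed as higher by limma.

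A minority of the other members passed as lower. At an adjusted p below 0.05, 6 of the 30 (20.0%) were lower in the Pax5-/- libraries, beside 21.5% of all genes tested. At an unadjusted p below 0.05, 14 of the 30 (46.7%) were lower, beside 28.0% of all genes. All 6 were Hnrnp genes (6 of 19), and 0 of the 11 SR genes tested passed in either direction by limma, with 4 lower and 0 higher at an unadjusted p below 0.05. Whether the Hnrnp and SR genes differed in this was not tested. Fewer genes passed when either Pax5-/- replicate was left out, among the members and among all genes alike. That leaves 1 library in the group, so only the median difference is given here. The median of the members was -0.39 without replicate 1 and -0.19 without replicate 2, beside -0.143 and -0.085 over all genes. Rescaling the libraries by median ratios left Hnrnph3 and Hnrnpdl as lower by limma, beside 2249 of the 12059 genes tested.

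**Figure D2:**
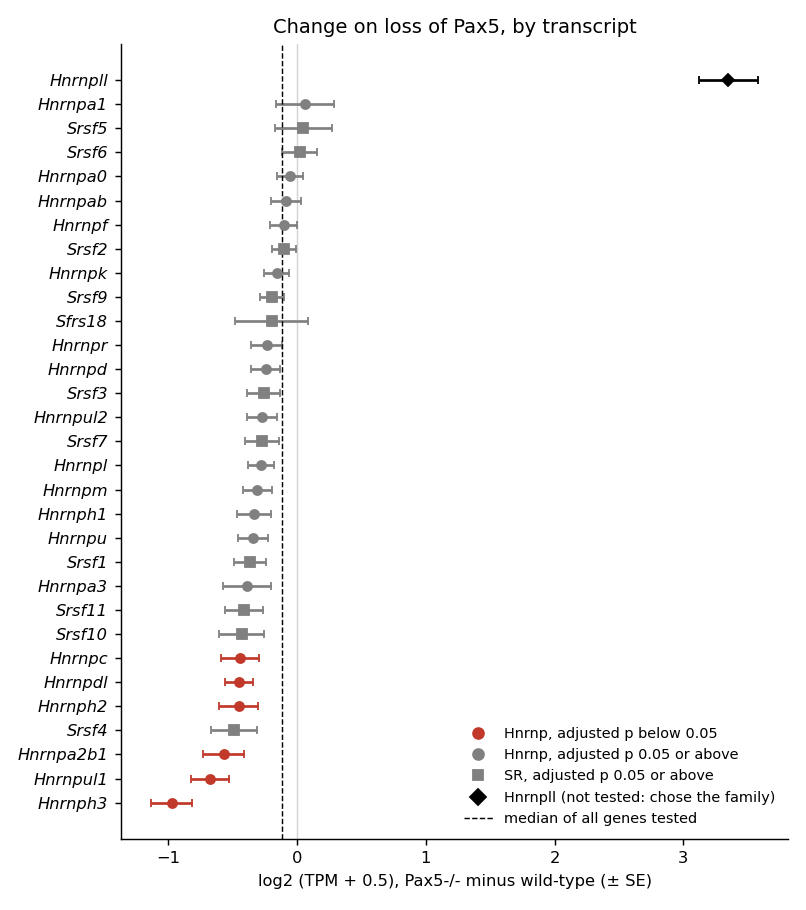
Difference of log2(TPM + 0.5) between Pax5-/- (n = 2) and wild-type (n = 3) pro-B cells for the 31 members tested, with bars of ± SE from limma. Red points passed an adjusted p of 0.05 over all genes, the dashed line marks the median of all genes (-0.12), and Hnrnpll (diamond) is shown as a description. The other members lie between -0.97 and 0.06, and Hnrnpll at 3.35.

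The largest fall was that of Hnrnph3, a member of the H and F group, whose proteins bind runs of G in RNA. The gene lies on the minus strand of chromosome 10 (mm9, chr10:62477412-62486965). Wild-type libraries gave 20.7, 21.7 and 24.8 TPM, against 12.2 and 10.2 TPM without Pax5. The groups were well apart, and each Pax5-/- value was below every wild-type value. The difference was -0.97 ± 0.16 (SE, log2 scale; limma, adjusted p = 0.00323), and it passed in 12 of the 13 alternatives tried, with an adjusted p of 0.0686 in the one that left out replicate 2 of the Pax5-/- cells. The X-linked Hnrnph2 of the same group was at 89.5, 92.0 and 121 TPM against 75.6 and 70.4 TPM. These groups did not overlap either, but the wild-type libraries were uneven, with replicate 3 the highest, and the difference of -0.45 ± 0.15 stood just inside the threshold (limma, adjusted p = 0.0484) and passed in 5 of the 13 alternatives. The remaining members of the group did not pass. Hnrnph1 was at 478, 486 and 600 TPM against 443 and 382 TPM (limma, adjusted p = 0.0847), and Hnrnpf at 260, 238 and 264 TPM against 252 and 221 TPM, where the groups overlapped.

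Hnrnpul1, a relative of the nuclear scaffold protein Hnrnpu, was the most abundant member in wild-type cells (mm9, chr7:26506517-26539749, minus strand). Its values were 1093, 1391 and 1025 TPM in the wild-type libraries and 770 and 682 TPM in the Pax5-/- libraries. The wild-type libraries varied among themselves, but even the lowest was above both Pax5-/- libraries. The difference was -0.68 ± 0.15 (SE, log2 scale; limma, adjusted p = 0.0103), and it passed in 9 of the 13 alternatives. Hnrnpu itself was at 819, 817 and 847 TPM against 729 and 587 TPM. The groups did not overlap, the Pax5-/- libraries were far apart from each other, and Hnrnpu was the member nearest to the threshold on the outside (-0.34 ± 0.12, limma, adjusted p = 0.0532). Hnrnpul2, the remaining relative, was at 147, 153 and 174 TPM against 141 and 122 TPM and did not pass (limma, adjusted p = 0.110).

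Hnrnpa2b1 (mm9, chr6:51410433-51419893, minus strand), which encodes a packaging protein of nascent transcripts, was at 925, 873 and 1218 TPM in wild-type cells, against 720 and 623 TPM without Pax5. All Pax5-/- values were below all wild-type values, with wild-type replicate 3 far above the other two. The difference was -0.57 ± 0.16 (SE, log2 scale; limma, adjusted p = 0.0260). Hnrnpc, which binds runs of U and keeps cryptic exons silent, was at 241, 219 and 307 TPM against 186 and 186 TPM. Again the groups did not overlap and wild-type replicate 3 was the highest, and at -0.44 ± 0.15 it stood just inside the threshold (limma, adjusted p = 0.0481). It passed in 5 of the 13 alternatives and Hnrnpa2b1 in 7 of them.

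Hnrnpdl encodes a protein related to the AU-rich element binding protein Hnrnpd, and the genes lie 54.6 kb apart on the minus strand of chromosome 5. Hnrnpdl was at 184, 183 and 197 TPM in wild-type cells, against 149 and 126 TPM without Pax5. The wild-type libraries were close to each other and the Pax5-/- libraries were lower. The difference was -0.45 ± 0.11 (SE, log2 scale; limma, adjusted p = 0.0156), and it passed in 11 of the 13 alternatives. Its neighbour Hnrnpd was at 241, 243 and 206 TPM against 204 and 183 TPM. Here the lowest wild-type library was next to the higher Pax5-/- library, and the difference of -0.24 ± 0.11 did not pass (limma, adjusted p = 0.128).

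The remaining Hnrnp members did not pass. Hnrnpm, which binds sequences rich in G and U, was at 638, 631 and 716 TPM against 577 and 494 TPM (limma, adjusted p = 0.0661), and the poly(C)-binding Hnrnpk at 318, 311 and 351 TPM against 297 and 289 TPM (limma, adjusted p = 0.235). In neither did the groups overlap. Hnrnpa0 and Hnrnpab, among the 5 most abundant members in wild-type cells, overlapped between the genotypes. Hnrnpa0 was at 1075, 1194 and 1068 TPM against 1098 and 1042 TPM, and Hnrnpab at 961, 1164 and 1173 TPM against 1005 and 1060 TPM. Their differences of -0.05 ± 0.10 and -0.08 ± 0.12 (SE, log2 scale) turned positive when the libraries were rescaled by median ratios, as did those of Hnrnpf and Srsf2.

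Some levels are uncertain because the transcripts share sequence with other places in the genome, counting exact matches only. Reads that map to several places were left out by the counting program with its default settings, and of the 50-base stretches of the longest transcript 89.3% in Hnrnpa3, 82.9% in Hnrnpa1 and 76.7% in Hnrnpf also occurred elsewhere in the mm9 chromosomes. The share was 51.1% in Hnrnpk, 50.0% in Srsf5, 40.9% in Srsf3, 36.3% in Hnrnpr, 32.6% in Srsf10, 28.0% in Hnrnph2, 26.0% in Hnrnpc and 12.4% in Hnrnph1. In the other members it was at most 7.24% (Srsf2), and Hnrnph3, Hnrnpu, Hnrnpd and Hnrnpm had none. Hnrnpa1, whose protein is among the best known of the family, was at only 20.0, 21.2 and 33.6 TPM against 26.4 and 24.3 TPM, and Hnrnpa3 at 11.1, 11.3 and 14.1 TPM against 9.75 and 8.55 TPM. Neither gene passed (limma, adjusted p = 0.848 and 0.134). The part of the shared sequence in these levels was not tested.

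The SR genes tested had a median difference of -0.26 on the log2 scale, and the Hnrnp genes other than Hnrnpll one of -0.31. Counted in the translated proteins, RS and SR dipeptides numbered between 4.05 (Srsf9) and 21.8 (Srsf6) per 100 residues in the 12 SR members and between 0.27 and 2.64 in the 20 Hnrnp members, so the groups by name were also apart in sequence. Srsf2, which binds exonic enhancers and was the most abundant SR transcript, was at 919, 930 and 861 TPM against 835 and 845 TPM. Its groups did not overlap, but the gap was narrow (-0.10 ± 0.09, limma, adjusted p = 0.415). Srsf1, the founding member of the family, was at 211, 237 and 271 TPM against 193 and 177 TPM. All Pax5-/- values were below all wild-type values, and the difference of -0.36 ± 0.13 was the nearest to the threshold among the SR genes (limma, adjusted p = 0.0559). Srsf4 was at 43.1, 57.4 and 60.1 TPM against 42.2 and 33.5 TPM, with the largest difference of the SR genes at -0.49 ± 0.18 (limma, adjusted p = 0.0664), and Srsf11 at 114, 120 and 156 TPM against 102 and 91.4 TPM (limma, adjusted p = 0.0656).

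Positive differences among the 30 members were found for Hnrnpa1 (0.06 ± 0.23), Srsf5 (0.05 ± 0.22) and Srsf6 (0.02 ± 0.14), all of them smaller than their SE. Srsf5 was at 178, 154 and 262 TPM in wild-type cells against 224 and 178 TPM without Pax5, and Srsf6 at 177, 168 and 221 TPM against 199 and 182 TPM. In both, the Pax5-/- values fell inside the wild-type range, and wild-type replicate 3 was the highest. Sfrs18, an RS-rich protein gene that now carries the name Pnisr, varied most among the wild-type libraries, at 22.0, 31.4 and 45.8 TPM against 31.4 and 24.3 TPM (limma, adjusted p = 0.618). Srsf3, Srsf9 and Srsf10 had Pax5-/- values below all wild-type values and did not pass (limma, adjusted p = 0.155, 0.139 and 0.0953).

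**Figure D3:**
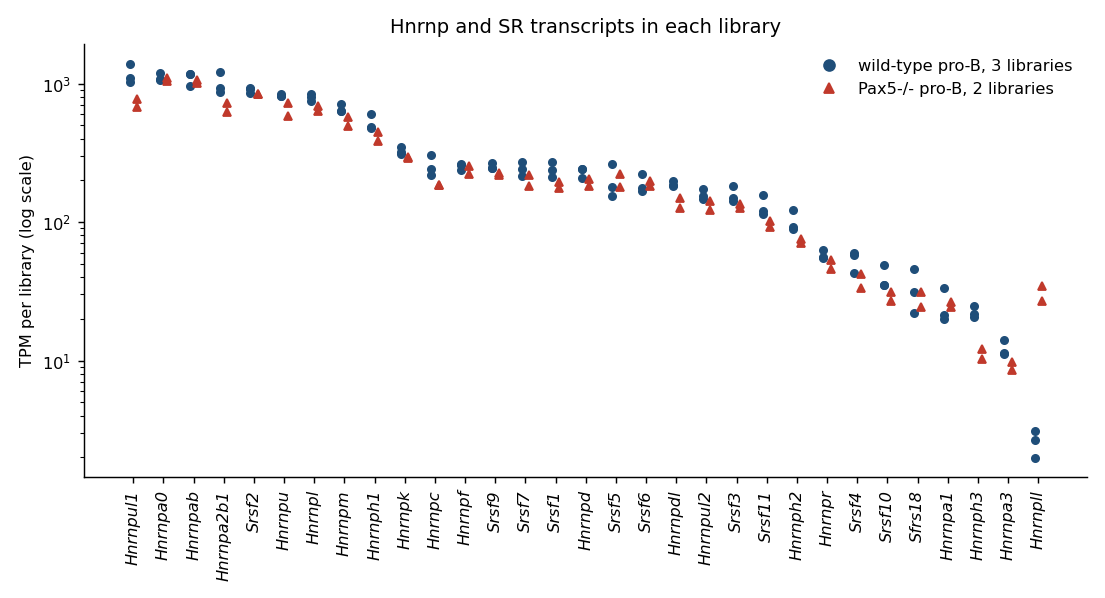
TPM of the 31 members that passed the filter, on a log axis, ordered by their mean in wild-type pro-B cells. Circles are the 3 wild-type and triangles the 2 Pax5-/- libraries. Hnrnpul1 leads at 1025 to 1391 TPM, and Hnrnpll stands last at 1.99 to 3.11 TPM in wild-type cells with its Pax5-/- libraries at 27.1 and 34.6 TPM.

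Across libraries, 26 of the 30 members (86.7%) had their highest value in wild-type replicate 3, beside 40.0% of all genes tested. The lowest value of 23 members (76.7%) was that of Pax5-/- replicate 2, beside 32.7% of all genes, and 27 of the 30 were lower in that library than in Pax5-/- replicate 1, beside 60.5% of all genes. These libraries were thus the commonest extremes for genes in general as well. Wild-type replicate 3 also held the highest erythroid marker sum of the 5 libraries (57.5 TPM) and Pax5-/- replicate 2 the lowest (4.55 TPM). None of the other marker sums shared both extremes. The highest myeloid sum was in wild-type replicate 2 (252 TPM) and the highest T cell sum in wild-type replicate 1 (13.2 TPM). That of plasmacytoid dendritic markers was in Pax5-/- replicate 2 (173 TPM) and that of plasma cell markers in wild-type replicate 3 (106 TPM). The part of such cells in these values was not tested. The 2 Pax5-/- values lay below all 3 wild-type values in 22 of the 30 members (73.3%), beside 37.4% of all genes tested, and above them in 0, beside 26.1% of all genes. The median difference of the 30 members was -0.28 on the log2 scale, and that of all 12066 genes was -0.12. Rescaling by median ratios moved the median of all genes from -0.12 to -0.003 and that of the members to -0.16, so the members stood 0.16 below the median of all genes on either scale. Differences below 0 were found in 27 of the 30 members, and in 23 after that rescaling. Leaving out single libraries moved the median of the members between -0.39 (without Pax5-/- replicate 1) and -0.19 (without Pax5-/- replicate 2). The members share their libraries and are not independent of each other.

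The 19 Hnrnp entries other than Hnrnpll summed to 8384, 8856 and 9247 TPM in wild-type cells and to 7433 and 6794 TPM without Pax5, between 0.679% and 0.925% of all transcripts. No Pax5-/- library reached the lowest wild-type library, and the ratio of the means was 0.806 (exact permutation test over the 5 libraries, two-sided p = 0.1, the smallest value that 10 splits allow). The 12 SR entries summed to 2333, 2335 and 2642 TPM against 2237 and 2083 TPM, a ratio of 0.886 (exact permutation test, two-sided p = 0.1). Neither sum can reach 0.05 in this design. After rescaling by median ratios the ratios were 0.873 and 0.961 (exact permutation test, p = 0.1 and 0.3), and after quantile normalization 0.841 and 0.938 (p = 0.2 and 0.6). In the Meox2-cre libraries the 19 Hnrnp entries summed to 7125 ± 279 TPM (SD, n = 3), beside means of 8829 TPM in wild-type and 7113 TPM in Pax5-/- cells of the other tables, and no test was made between the tables.

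**Figure D4:**
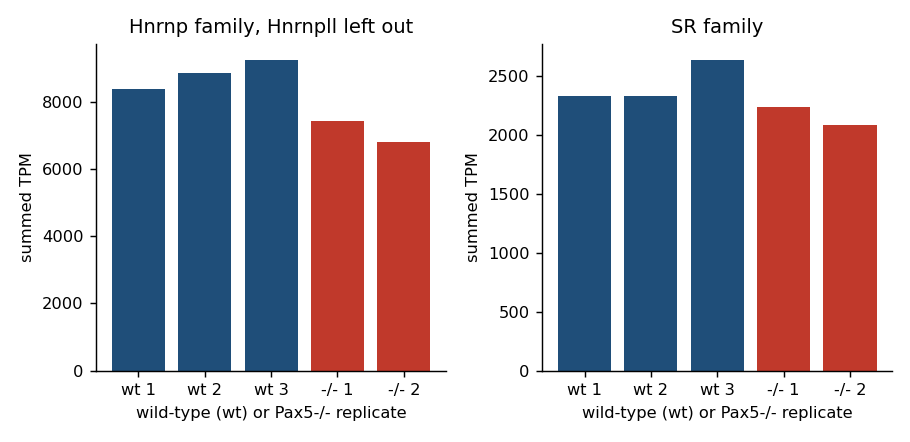
Summed TPM of the Hnrnp entries (left, 19 entries without Hnrnpll) and the SR entries (right, 12 entries) in each library. Bars start at 0. The Pax5-/- libraries (red) lie below the wild-type libraries (blue) in both families, at 7433 and 6794 against 8384 to 9247 TPM and at 2237 and 2083 against 2333 to 2642 TPM.

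The promoters of the members are shown for the pair with the largest falls and for the paralogue of Hnrnpll. The first are shown because they had the largest falls among the members that passed, and the last because its protein is the most like that of Hnrnpll. In RefSeq (GRCm38.p6), 29 of the 32 members had 41 promoters of 300 bases, from 250 bases before to 50 bases after the start. Hnrnpll, Hnrnpul2 and Sfrs18 were not among them. Some genes had several promoters whose windows overlap, such as Srsf4 and Hnrnpa2b1, so 1 match can be counted more than once. The member promoters had a median of 31 CpG dinucleotides and 68.3% G and C, against 7 and 52.7% over all 32851 promoters. These were not limited to genes detected in pro-B cells, and promoters of similarly abundant genes were not compared. A GC box (GGGCGG) was found on either strand in 82.9% of the member promoters and in 35.7% of all, a CCAAT box (CCAAT) in 51.2% and 37.4%, an ETS motif (CCGGAAG) in 24.4% and 8.86%, an E box (CACGTG) in 12.2% and 7.15%, a TATA box (TATAAA) in 9.76% and 13.6%, and a STAT motif (TTCCNGGAA) in 2.44% and 1.15%. The ETS and STAT letters can overlap each other. Capitals mark all matches to these motifs in the sequences of Hnrnph3 (chr10:63023800-63024099, minus strand), Hnrnpul1 (chr7:25754710-25755009, minus strand) and Hnrnpl (chr7:28810640-28810939, plus strand), written 5′ to 3′ along the gene.
Hnrnph3: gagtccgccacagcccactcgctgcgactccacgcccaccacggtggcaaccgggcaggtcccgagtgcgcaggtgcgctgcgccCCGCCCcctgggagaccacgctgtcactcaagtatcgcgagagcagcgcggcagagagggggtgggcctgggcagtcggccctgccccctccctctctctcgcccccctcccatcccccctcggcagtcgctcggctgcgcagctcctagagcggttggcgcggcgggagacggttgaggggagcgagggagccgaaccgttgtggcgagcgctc
Hnrnpul1: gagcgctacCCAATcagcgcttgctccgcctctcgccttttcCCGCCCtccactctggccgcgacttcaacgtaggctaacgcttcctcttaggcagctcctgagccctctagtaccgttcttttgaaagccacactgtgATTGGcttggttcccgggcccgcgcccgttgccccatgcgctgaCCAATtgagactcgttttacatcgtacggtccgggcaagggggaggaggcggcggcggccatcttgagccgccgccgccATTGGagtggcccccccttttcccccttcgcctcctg
Hnrnpl: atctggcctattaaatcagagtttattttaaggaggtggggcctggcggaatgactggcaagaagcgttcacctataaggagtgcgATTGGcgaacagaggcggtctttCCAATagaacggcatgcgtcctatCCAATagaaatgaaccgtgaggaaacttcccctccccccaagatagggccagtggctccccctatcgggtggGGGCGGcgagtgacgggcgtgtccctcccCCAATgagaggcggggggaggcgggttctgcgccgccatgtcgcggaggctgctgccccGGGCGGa
The Hnrnph3 promoter held 1 GC box and no CCAAT box. Those of Hnrnpul1 and Hnrnpl held 4 CCAAT boxes each, with 1 and 2 GC boxes. A match is a string of letters in this window and shows no binding.

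Other genes of the splicing pathway were examined in lists that exclude the members. Among 48 tested genes of other splicing regulators, 13 (27.1%) were lower and 1 was higher in the Pax5-/- libraries by limma at an adjusted p below 0.05, beside 21.5% and 15.6% of all genes, and the median difference was -0.29 against -0.12 over all genes. The gene that rose was Cirbp, a cold-inducible RNA-binding protein, from 176, 144 and 156 TPM to 412 and 427 TPM. These groups were far apart, with a difference of 1.41 ± 0.11 (SE, log2 scale; limma, adjusted p = 0.00011). The largest fall was that of Pcbp3, a poly(C)-binding protein, from 30.2, 46.2 and 34.3 TPM to 10.9 and 9.57 TPM (-1.78 ± 0.20, limma, adjusted p = 0.000533). Khdrbs3 (-1.35 ± 0.40) also fell, at low and uneven levels of 2.14, 4.33 and 6.27 TPM against 1.095 and 1.385 TPM. The SR-like exon activator Tra2a (-0.97 ± 0.20), Rbm39 (-0.77 ± 0.17) and the muscleblind gene Mbnl1 (-0.71 ± 0.11) fell as well. Fewer genes of the list were lower by limma when either Pax5-/- replicate was left out. Without wild-type replicate 2 the lower genes of the list numbered 8, beside 1958 of the 12036 genes tested.

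SR proteins are phosphorylated by the SRPK, CLK and DYRK kinases and carried into the nucleus by transportin. The list of 15 genes held such kinases, transportin genes and also Prmt1, Prmt5 and Carm1, which encode arginine methyltransferases. Of the 15, 1 (6.7%) was higher and 4 (26.7%) were lower by limma at an adjusted p below 0.05. The shares over all genes were 15.6% and 21.5%, and the median of the list was -0.19 against -0.12 over all genes. Srpk1 was at 76.3, 80.4 and 104 TPM against 86.5 and 72.9 TPM and did not pass (-0.12 ± 0.16, limma, adjusted p = 0.590). Srpk2 rose from 12.1, 14.6 and 18.8 TPM to 35.1 and 31.6 TPM (1.13 ± 0.20, limma, adjusted p = 0.00403), with no overlap between the groups. Srpk3 fell from 8.58, 4.24 and 9.97 TPM to 0.226 and 0.251 TPM (-3.38 ± 0.36, limma, adjusted p = 0.000458), with both Pax5-/- libraries near 0. Dyrk1a (-0.74 ± 0.12), Clk3 (-0.46 ± 0.11) and the transportin gene Tnpo3 (-0.40 ± 0.13) fell by less. Fewer genes of the list passed by limma when either Pax5-/- replicate was left out. Without wild-type replicate 1 the list had 2 higher and 6 lower genes, beside 1842 and 3233 of the 12127 genes tested.

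The core spliceosome, the machinery that removes introns, was represented by 49 genes. Of these, 7 (14.3%) were lower and 0 higher by limma at an adjusted p below 0.05, beside 21.5% and 15.6% of all genes. At an unadjusted p below 0.05, 18 (36.7%) were lower and 0 higher, beside 28.0% and 19.3%, and the median difference was -0.18. Prpf3 fell from 51.7, 59.7 and 70.6 TPM to 34.9 and 30.3 TPM (-0.88 ± 0.16, limma, adjusted p = 0.00435), and Sf3b1, the branch site protein, from 134, 145 and 157 TPM to 94.7 and 91.8 TPM (-0.64 ± 0.10, limma, adjusted p = 0.00329). Both had the genotypes clearly apart. Luc7l3 (-0.68 ± 0.20), Plrg1 (-0.44 ± 0.13) and Usp39 (-0.43 ± 0.11) also fell. Fewer genes of the list were lower by limma when either Pax5-/- replicate was left out. Without wild-type replicate 1 the lower genes numbered 11, beside 3233 of the 12127 genes tested.

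**Figure D5:**
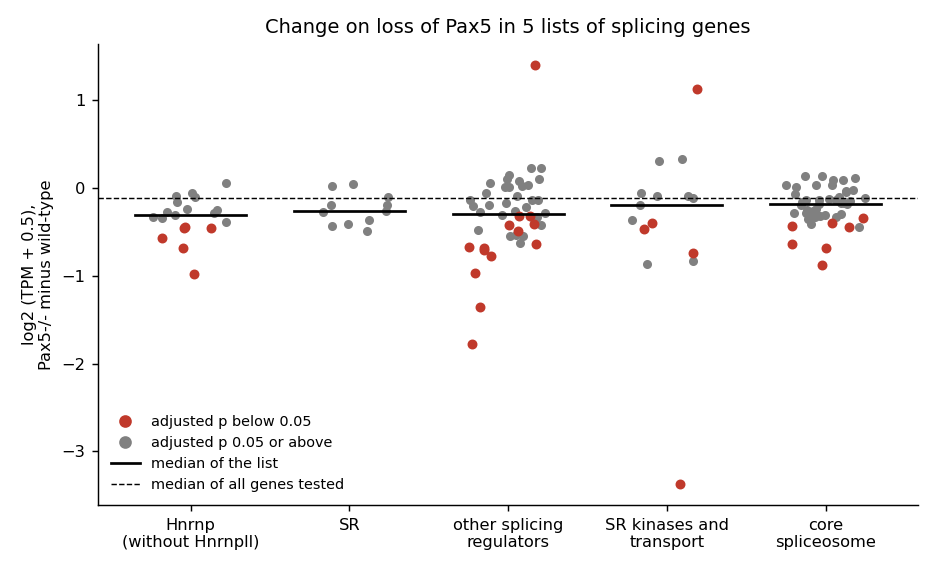
Difference of log2(TPM + 0.5) between Pax5-/- and wild-type pro-B cells for the tested genes of 5 lists (points spread sideways for visibility only). Red points passed an adjusted p of 0.05 over all genes, solid lines are list medians and the dashed line is the median of all genes. The medians lie between -0.31 (Hnrnp without Hnrnpll) and -0.18 (core spliceosome), and the points past 1 in either direction are Cirbp, Srpk2, Pcbp3, Khdrbs3 and Srpk3.

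The Meox2-cre libraries gave the levels of the members in pro-B cells that the choice of the family did not use. They listed 32 matching entries of 25588, of which 31 shared their names with the mm9 tables. Hnrnpll was at 2.47, 2.51 and 2.07 TPM (2.35 ± 0.242, SD, n = 3), beside 1.99 to 3.11 TPM in the wild-type and 27.1 and 34.6 TPM in the Pax5-/- libraries of the other tables. All 3 values were within the wild-type range. Hnrnpl was at 795, 811 and 758 TPM. Hnrnph3 was at 19.9, 17.4 and 19.0 TPM, between the wild-type and the Pax5-/- values of the other tables, and Hnrnpul1 was at 1162, 1114 and 1201 TPM, within the wild-type range. Srsf12 was listed at 0 in all 3 libraries.

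The order of the members was similar in the Meox2-cre and the wild-type libraries, with Hnrnpul1 first and Hnrnpll last among those detected in both tables. Spearman's rho between the means was 0.952 over 31 members, Hnrnpll and Srsf12 included, as a description across genes that differ widely in level. The means were within 2-fold of each other in 28 of the 31 members. Hnrnpu and Hnrnpf stood outside, at 325 ± 9.07 TPM and 84.6 ± 4.03 TPM (SD, n = 3) against 828 ± 16.8 TPM and 254 ± 13.7 TPM in wild-type cells, and Srsf12 was listed at 0 in both. The tables differ in genome build, aligner and annotation as well as in the mice, which cannot be told apart, and no test was made between them. Hnrnpa1l2-ps2, a pseudogene entry of the mm10 tables without a counterpart in mm9, was at 2.66, 2.97 and 3.08 TPM.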

How the data were processed

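RNA was measured in sorted pro-B cells of 3 wild-type, 2 Pax5(-/-) and 3 Pax5(+/+) Meox2-cre libraries, and groups were taken from the sample labels. The values are TPM, which the authors deposited per gene. For the first 5 libraries they aligned with TopHat 1.4.1a to mm9 and counted with featureCounts 1.5.0 at default settings on a modified refGene annotation, and for the others they used STAR 2.4.2a, mm10 and the mm10 refGene annotation, with immunoglobulin and T cell receptor genes added. Since reads were divided by gene length and scaled to one total, depth cannot be recovered. The meaning of a mark (IMP_OVL) that 7 members carry in the mm9 tables was not given in the sources used here. Labels name the Meox2-cre mice Pax5(+/+), whereas a supplementary list of the study gives them as heterozygous, and the labels were followed.

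The genotypes were compared on log2(TPM + 0.5) by limma 3.58.1, run in R 4.3.3 (eBayes with trend, no covariates). The 12066 genes that averaged over 1 TPM in either genotype were tested, with Benjamini-Hochberg adjustment over all of them. The pseudocount of 0.5 understates the change of low genes. The script for this fit was tested on simulated data beforehand. It recovered 18 of 100 genes changed 1.5-fold and 89 of 100 changed 6-fold. No other genes were changed in the simulation, whereas 1885 genes passed as higher and 2596 as lower in the data. The adjusted threshold was therefore stricter in the simulation, and its shares do not give the power for the members. A member that did not pass is still not shown to be unchanged. Members and lists were chosen with earlier results of these data known. The genes named were Hnrnpll and Hnrnpl, members that passed, the most abundant members, those next to the thresholds, members outside the filter, and, of the other lists, up to 5 genes that passed in each direction, while further members, Srpk1 and single T cell markers were named to complete their groups after their values were seen. Proteins and shared 50-base stretches came from the mm9 annotation of GENCODE and promoters from RefSeq. Proteins were aligned with Biopython 1.88. The 13 alternatives were other pseudocounts, filters, variance models and scalings and leaving out each library. Python 3.11.15, pandas 2.3.3, scipy 1.17.1 and matplotlib 3.10.9 were used. ChIP-seq samples and other genotypes are not analysed here. The summed B lineage markers and 1 check gene are not reported here.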

Additional observations from a re-analysis of the deposited data

How the results depend on the processing

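No paired analysis was possible because the replicate numbers used here follow the order of the sample records and only name libraries. A lone library left after leaving out a Pax5-/- replicate is assumed to vary like the wild-type group. The number of members lower in the Pax5-/- cells was 6, beside 2596 of 12066 genes tested. It was 1 without the filter on low values (1257 of 24732 genes) and 3 with eBayes without trend (2236 of 12066). After median-ratio scaling it was 2 (2249 of 12059 genes), and after quantile normalization 3 (2409 of 12077). Leaving out single wild-type libraries gave 5 to 8 (1958 to 3233 genes), and fewer passed when either Pax5-/- library was left out. With eBayes without trend, the genes of the core spliceosome that were lower numbered 2, after median-ratio scaling 3 and after quantile normalization 4, beside 7. Without the filter, which adds 1 higher member (Srsf12), 1164 of all 24732 genes were higher and 1257 lower. Other splicing regulators then gave 2 higher and 4 lower genes, SR kinases and transport 0 and 2, and the core spliceosome 2 lower. After median-ratio scaling, other splicing regulators and SR kinases and transport each had 2 higher genes, beside 2413 of all 12059 genes. After quantile normalization each had 3, beside 2476 of all 12077 genes. Leaving out single wild-type libraries gave 8 to 18 lower genes among other splicing regulators and 5 to 11 in the core spliceosome. Among SR kinases and transport it gave 1 to 2 higher and 3 to 6 lower genes. Over all genes these settings gave 1597 to 1977 higher and 1958 to 3233 lower. In each list fewer genes passed when either Pax5-/- library was left out. The cause was not tested. Pseudocounts of 0.1 and 1 changed the call of none of the 30 members.

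Signs turned in members that did not pass. After median-ratio scaling Hnrnpa0 was at 0.062, Hnrnpab at 0.031, Hnrnpf at 0.013 and Srsf2 at 0.013 on the log2 scale. When single libraries were left out, Hnrnpa1 ran from -0.074 to 0.293, Srsf5 from -0.113 to 0.272, Srsf6 from -0.055 to 0.141 and Sfrs18 from -0.452 to 0.067. The difference of Hnrnpll stayed between 3.15 and 3.58 over its alternatives, and the family sums kept their direction in all of theirs. Depth in reads is unknown and limits what can be said of low genes such as Srsf12.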
